A study of Mus musculus with 66 samples.

Results

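The genes that encode the subunits of mitochondrial complex I were followed in RNA from the central nervous system of mice with spontaneous mutations in Rorb and of their control strains. Members were chosen by symbol alone: protein-coding genes named Nduf followed by a, b, c, s or v and a number, and genes whose name starts with mt-Nd. This gave 43 genes of the 45706 gene identifiers measured, of which 36 lie in the nuclear genome and 7 in the mitochondrial genome. The annotation holds 44 such genes, and the remaining one, Ndufb1, was not analysed here. All 43 members passed the filter on low counts in each of the 26 comparisons, and their lowest expected count in any library was 361, for Ndufb4.

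Complex I, NADH:ubiquinone oxidoreductase, is the entry point of electrons from NADH into the respiratory chain and pumps protons across the inner mitochondrial membrane. Its N module, with the core subunits Ndufv1, Ndufv2 and Ndufs1, oxidises NADH, and its Q module, whose core subunits include Ndufs3, Ndufs7 and Ndufs8, passes the electrons on to ubiquinone. The membrane arm is built around the subunits that mitochondrial DNA encodes, mt-Nd1 to mt-Nd6 with mt-Nd4l, and around each of them sit nuclear accessory subunits that are needed for assembly and stability but carry no redox centre. Neurons depend on this chain for most of their ATP, and the complex is assembled from proteins made in the cytosol and inside the organelle, so its transcripts come from both genomes.

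The study made bulk poly(A) RNA-seq libraries from 5 recessive high-stepper lines, which lift their hind limbs abnormally when they walk, and asked how gene expression in the nervous system differed from that of strain-matched controls. There were 66 libraries from 30 mice, in 20 groups of 3 or 4 mice, with 1 library per mouse and tissue, so the replicates of a group were separate animals. All mutants were homozygous for a spontaneous Rorb allele. The h1 allele is a duplication upstream of Rorb that takes in the first exon of the Rorb1 isoform, h4 is a premature stop shared by both isoforms, h5 is a loss of the Rorb1 start codon, and the causal change of h2 and h3 was not identified. Rorb h1/h1 mice were on C57BL/6J, Rorb h2/h2 and Rorb h3/h3 on the albino line B6(Cg)-Tyr c-2J/J, Rorb h4/h4 on B6.129S7-Il1r1 tm1/mx/J, and Rorb h5/h5 on DBA/1J. The albino line carries a tyrosinase mutation and the Il1r1 line a targeted interleukin 1 receptor allele, which the C57BL/6J controls lack. Wild-type C57BL/6J mice served as controls for the first 4 alleles and wild-type DBA/1J mice for h5. Brain and spinal cord were sequenced in C57BL/6J, h1, DBA/1J and h5 (3 mice each) and in h2, h3 and h4 (4 mice each), and cortex, hippocampus and cerebellum in DBA/1J and h5 (3 mice each). Mice in the brain and spinal cord groups were 7.9 to 9.6 weeks old and those in the region groups 7 weeks old, with both sexes in every group by label. The h2, h3 and h4 mice came from other identifier series than their controls and carried another background, so that allele, background and batch cannot be told apart for them. The same 3 C57BL/6J control libraries per tissue served all 4 alleles.

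Total counts ran from 32889755 to 59120536 per library. Rorb itself was measured at 11 to 13.1 TPM in C57BL/6J brain, at 2.57 to 3.57 in h4, 5.76 to 6.58 in h2, 7.31 to 7.82 in h1 and 11.1 to 11.8 in h3, and h5 brain (15.4 to 18.2) lay above DBA/1J brain (10.6 to 13.8). The summed spinal cord markers were at 330 to 423 TPM in spinal cord libraries and at 0.03 to 30.1 elsewhere. Brain DBA/1J replicate 1 lacked cerebellar transcripts: Gabra6, a granule cell receptor subunit, was at 0.16 TPM there against 92.2 and 85.8 in the other DBA/1J brains. Cortex DBA/1J replicate 1 had 8.1% of its counts on mitochondrially encoded genes, against 5.53% and 5.27% in the other cortices. One h5 mouse of the region groups, replicate 3, was labelled female but had transcripts of male-specific genes. Counts of called members that rest on either DBA/1J library are given with and without it, while the pathway lists were read with all libraries.

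Complex I transcripts were abundant in every library. TPM is a level scaled by transcript length and by library, so that genes can be compared. It does not correct for differences between transcripts in poly(A) capture, on which these libraries rest. By mean TPM over the 66 libraries, mt-Nd1 (13367), mt-Nd4 (10153) and mt-Nd2 (7932) were highest, and mt-Nd6, the only mitochondrial member encoded on the light strand, was lowest of the mitochondrial members at 956. Between them lay mt-Nd4l (5032), mt-Nd5 (5012) and mt-Nd3 (1732). Of the mitochondrial members, values for mt-Nd4l and mt-Nd3 depend most on the length correction, since their median effective lengths were 69.3 and 109 bases. The nuclear ranks depend on it as well. Ndufa3 and Ndufa11 had effective lengths of 112 and 2407.5 bases, while their lowest expected counts were 805 and 882. Nuclear members were led by Ndufa4 (823 TPM), a subunit first purified with complex I and now counted to complex IV, then Ndufa3 (501), a small membrane-arm subunit, and Ndufb8 (414), a subunit of the distal membrane arm. The lowest were Ndufs4 (64.6), an N module subunit whose loss causes Leigh syndrome, Ndufb4 (37.4) and Ndufa11 (23.4), both membrane-arm subunits.

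Members differed little in level between groups. The ratio of the highest to the lowest group mean was between 1.26, for Ndufa8, and 1.97, for mt-Nd3, with Ndufv3 (1.84), Ndufa4 (1.81) and mt-Nd5 (1.8) next to mt-Nd3. The summed level of the 36 nuclear members was 6944 ± 456 TPM (SD, n = 3) in C57BL/6J brain, 8119 ± 233 in C57BL/6J spinal cord, 6790 ± 8.11 in DBA/1J brain and 7972 ± 388 in DBA/1J spinal cord. In the DBA/1J regions it was 6378 ± 81.1 in cortex, 6840 ± 219 in hippocampus and 8924 ± 294 in cerebellum, so cerebellum and spinal cord lay above the other tissues. The 7 mitochondrial members followed another order. Their sum was 47129 ± 782 TPM in C57BL/6J brain and 48818 ± 2955 in C57BL/6J spinal cord, but 39921 ± 3081 and 41790 ± 3041 in the same tissues of DBA/1J. It was lowest in DBA/1J cerebellum, at 33334 ± 3426, against 45424 ± 10099 in cortex and 41852 ± 4554 in hippocampus. The mitochondrial to nuclear ratio of these sums was 3.75 ± 0.49 in DBA/1J cerebellum and 6.81 ± 0.45 in C57BL/6J brain.

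**Figure D1:**
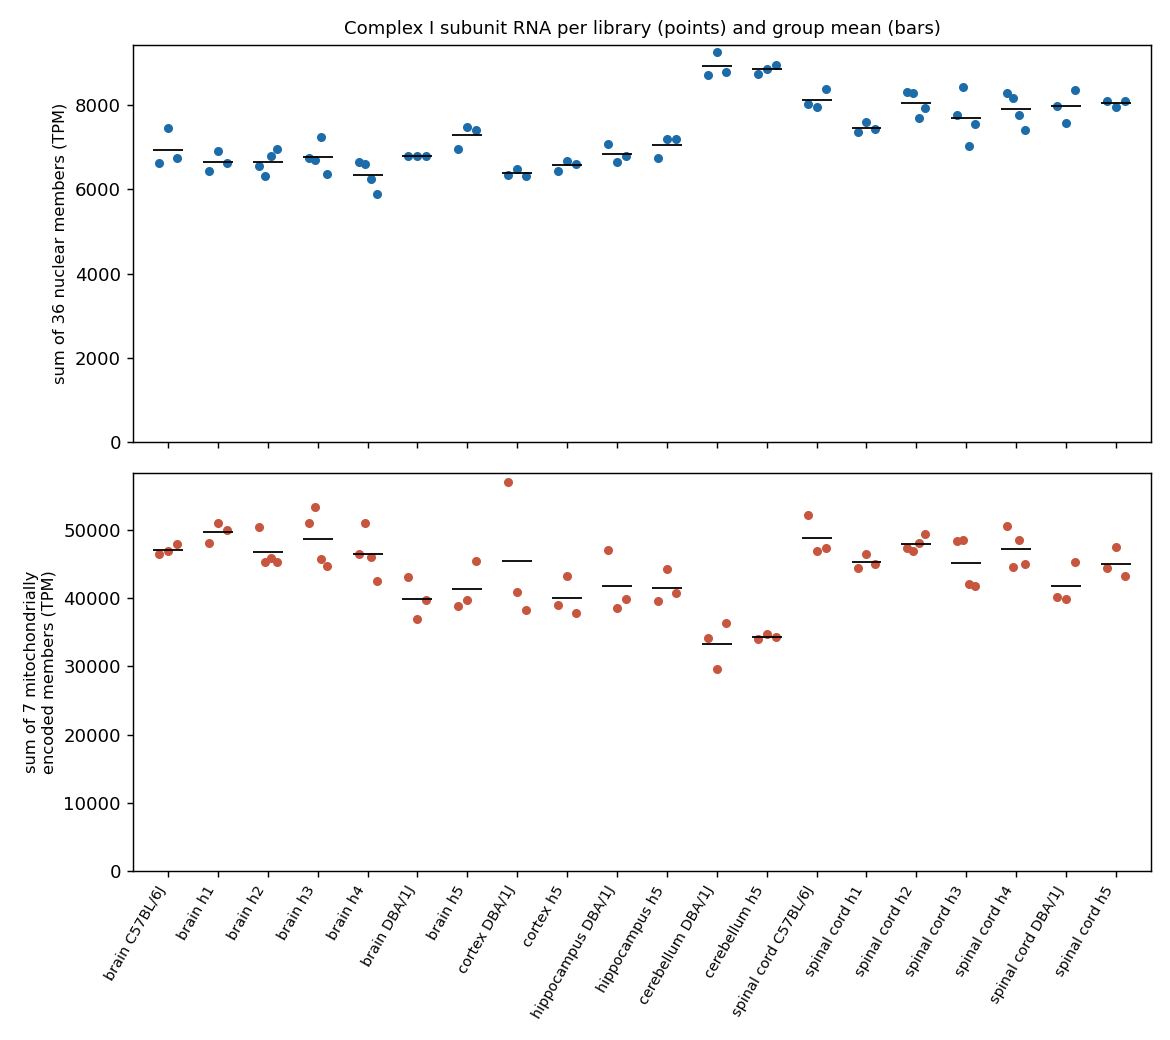
Summed TPM of the 36 nuclear members and of the 7 mitochondrially encoded members in each library of the 20 groups; points are libraries and bars are group means. Nuclear sums were highest in cerebellum (8720 to 9262 TPM in DBA/1J), where mitochondrial sums were lowest (29585 to 36301), and the cortex DBA/1J library at 56985 stands above the other cortex libraries.

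Some members share sequence with another gene, which bears on how reads were divided among them. The transcript stretches that follow, from GENCODE vM39, show this for the copies and overlaps that touch the results; capitals mark differing bases in the Ndufa12 pairs and shared bases in the mitochondrial pairs. Ndufa12, an N module accessory subunit, has a processed pseudogene, Ndufa12-ps, that is 99.5% identical over 402 aligned bases with 2 differing bases. The start of the Ndufb4 coding sequence reads the same in Ndufb4c, a gene copy that is 100% identical over 390 bases. The last 7 bases of mt-Nd4l are the first of mt-Nd4, and mt-Nd5 and mt-Nd6 overlap by 14 bases on opposite strands.
Ndufa12: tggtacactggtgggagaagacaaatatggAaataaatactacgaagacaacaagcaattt
Ndufa12-ps: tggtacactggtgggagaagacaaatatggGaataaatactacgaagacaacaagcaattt
Ndufa12: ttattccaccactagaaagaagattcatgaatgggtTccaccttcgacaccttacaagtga
Ndufa12-ps: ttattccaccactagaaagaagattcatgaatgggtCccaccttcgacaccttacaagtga
Ndufb4 and Ndufb4c: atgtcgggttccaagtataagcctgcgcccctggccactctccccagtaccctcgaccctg
mt-Nd4l: gtccaaaatctcaacctactacaATGCTAA
mt-Nd4: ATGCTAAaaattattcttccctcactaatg
mt-Nd5: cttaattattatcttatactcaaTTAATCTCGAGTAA
mt-Nd6: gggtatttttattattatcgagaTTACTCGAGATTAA

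Ndufb4 had a mean of 37.4 TPM while Ndufb4c was at 272 to 422 TPM, with a median of 342, and the division of reads between these identical sequences is uncertain. Values of mt-Nd5 and mt-Nd6 are uncertain where they overlap, because the sources used here do not state that strand was used in counting.

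Some promoters of nuclear members hold sequences that are known from other respiratory chain genes. NRF1, nuclear respiratory factor 1, binds GC-rich palindromes in many of these promoters. The letters GCGCANGCG or, on the other strand, CGCNTGCGC were present within 250 bases before to 50 bases after the start of 8 of the 32 members with a promoter window in the RefSeq table (25%), against 7.03% of the windows of all 27025 genes. The 8 were Ndufa5, Ndufa6, Ndufa8, Ndufa11, Ndufb4, Ndufb10, Ndufs5 and Ndufs6. The letters AAGATGGCG of the YY1 element were present in Ndufa9, Ndufc1, Ndufs4, Ndufs6 and Ndufs7, 15.6% of members against 1.64% of all windows, and the GABP letters CCGGAAG in Ndufb6, Ndufb7, Ndufs3 and Ndufs8, 12.5% against 9.93%. The letters TAGGTCA, a core of the element that ROR family receptors bind, were present in Ndufa11 and Ndufb10, 6.25% against 2.97%. The estrogen-related receptor letters TCAAGGTCA, which share their last letters with TAGGTCA, were present in none of the 32, against 0.466% of all windows. All motifs were searched on both strands, and a match is a description of letters. Stretches of 59 bases around the NRF1 letters (capitals, on either strand) are printed in the direction of transcription for the 6 members where the first match lies wholly before the start, to show the letters in place; RefSeq windows are on GRCm38.p6. They lie at chr17:56717677-56717735 on the plus strand for Ndufa11, and on the minus strand at chr6:24527683-24527741 for Ndufa5, chr2:36049334-36049392 for Ndufa8, chr16:37654526-37654584 for Ndufb4, chr4:123718251-123718309 for Ndufs5 and chr13:73328464-73328522 for Ndufs6.
Ndufa11: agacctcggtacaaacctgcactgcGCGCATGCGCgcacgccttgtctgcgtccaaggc
Ndufa5: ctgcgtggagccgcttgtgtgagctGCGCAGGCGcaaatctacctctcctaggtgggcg
Ndufa8: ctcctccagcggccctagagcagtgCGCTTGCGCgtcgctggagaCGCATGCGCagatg
Ndufb4: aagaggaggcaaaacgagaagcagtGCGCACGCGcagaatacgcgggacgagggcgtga
Ndufs5: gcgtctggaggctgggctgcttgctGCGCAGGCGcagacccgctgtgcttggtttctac
Ndufs6: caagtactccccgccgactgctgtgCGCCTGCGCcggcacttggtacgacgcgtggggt

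Nuclear complex I transcripts were higher in spinal cord than in brain hemisections of the same control mice, whereas no mitochondrial member passed the edgeR test. In C57BL/6J, 25 of 43 members rose in spinal cord and none fell (edgeR quasi-likelihood test, Benjamini-Hochberg adjusted p under 0.05), and all 25 were nuclear. Among all genes tested 56.9% were called, 28.3% higher and 28.5% lower, so it is the one-sided direction and not the share called that sets members apart from the background. The median log2 fold change of nuclear members was 0.24, all 36 estimates were above 0, and the median over all genes was -0.00. Ranges of TPM did not overlap and were higher in spinal cord for 20 members, against 26.3% of all genes, and lower for 0, against 29.5%.

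Ndufb8 had the clearest difference. Its gene lies at chr19:44548571-44555442, and its level was 334, 383 and 318 TPM in the 3 C57BL/6J brains and 507, 484 and 548 TPM in the spinal cords of the same mice. All 3 spinal cords lay above all 3 brains. The log2 fold change was 0.62 ± 0.05 (SE), with an edgeR adjusted p of 3.4e-07. In DBA/1J, Ndufb8 was at 355, 365 and 371 TPM in brain and 538, 512 and 550 in spinal cord, again without overlap, and the log2 fold change was 0.51 ± 0.04 (edgeR adjusted p = 5.9e-06).

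Ndufa10, an accessory subunit of the membrane arm at chr1:92439486-92473825, was at 94.9, 108 and 99.5 TPM in C57BL/6J brain and at 130, 135 and 130 TPM in spinal cord. Its groups did not overlap, and the log2 fold change was 0.39 ± 0.04 (edgeR adjusted p = 6.1e-06), beside 0.32 in DBA/1J (edgeR adjusted p = 0.00011). Ndufv2, a core N module subunit that holds an iron-sulfur cluster, at chr17:66078795-66101559, was at 167, 188 and 173 TPM in C57BL/6J brain and 209, 222 and 226 in spinal cord. It too was higher in every spinal cord library, by 0.36 ± 0.05 on the log2 scale (edgeR adjusted p = 1.7e-05), and by 0.35 in DBA/1J.

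Of the 7 nuclear core subunits, which carry the redox centres, 6 rose in C57BL/6J spinal cord. Besides Ndufv2 these included Ndufs8 (log2 fold change 0.33), Ndufv1 (0.28), Ndufs1 (0.23) and Ndufs7 (0.21), and Ndufs3 stood at 0.12 with an edgeR adjusted p of 0.069. Ndufs7 lost its call without brain replicate 3 (0.12, edgeR adjusted p = 0.16), spinal cord replicate 2 (adjusted p = 0.12) or spinal cord replicate 3 (adjusted p = 0.086). By module, 6 of 9 N module genes and 6 of 7 Q module genes rose, and in the membrane arm 1 of 5 genes around mt-Nd1, 4 of 9 genes around mt-Nd2, 3 of 6 around mt-Nd4 and 4 of 6 around mt-Nd5. These counts include the mitochondrial members, of which mt-Nd2, mt-Nd3, mt-Nd4l and mt-Nd6 all fall in the mt-Nd2 module. One called Q module gene, Ndufa5, lost its call in 6 alternative fits, the replicate block included (edgeR adjusted p = 0.061), and Ndufa2 of the N module in 3. The mitochondrial members had log2 fold changes from 0.04 (mt-Nd1) to 0.21 (mt-Nd6). None passed by edgeR, 1 had an unadjusted p under 0.05, and DESeq2 called 1, mt-Nd2 (0.17, DESeq2 adjusted p = 0.035, edgeR adjusted p = 0.066). With mt-Nd1 at 13610, 13964 and 14104 TPM in brain and 15009, 13059 and 13766 in spinal cord, the groups overlapped.

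The same comparison in DBA/1J mice called 19 of 43 members, 18 higher and 1 lower, against 50.8% of all genes, 25.3% higher and 25.6% lower. TPM was higher without overlap for 22 members and lower for 2, against 29% and 24.2% of all genes. All 18 that rose were nuclear, and of the mitochondrial members DESeq2 called mt-Nd3 alone (-0.20, DESeq2 adjusted p = 0.049). The nuclear median was 0.18 and the mitochondrial median -0.04 on the log2 scale, or 0.10 without brain DBA/1J replicate 1. Of the 7 core subunits 6 rose again, Ndufs1 with a log2 fold change of 0.29 (edgeR adjusted p = 0.00025), and Ndufs3 was at 0.01. The one lower member was Ndufa7, a small accessory subunit, at 195, 198 and 196 TPM in brain and 183, 173 and 191 in spinal cord. Its log2 fold change of -0.16 had an edgeR adjusted p of 0.046, and this call was lost in 10 alternative fits, with the mouse as a replicate block among them (adjusted p = 0.061) and without brain DBA/1J replicate 1 (-0.14, adjusted p = 0.11). Leaving out that library, which lacked cerebellum, gave 21 called members.

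Other parts of the respiratory chain were read from lists of their genes. In C57BL/6J, spinal cord was higher for 4 of 4 tested complex II genes, 6 of 10 of complex III, 7 of 13 of complex IV with 1 lower, and 13 of 17 of complex V. Beside these and the C57BL/6J counts that follow stand 28.3% of all genes higher and 28.5% lower. Complex I assembly factors rose in 7 of 18 and fell in 1; Ndufaf2, which assists the addition of the N module, had a log2 fold change of 0.91 in C57BL/6J (edgeR adjusted p = 2e-07) and 0.88 in DBA/1J. Of 14 genes of mitochondrial biogenesis 5 rose, such as Tfam, which binds and packages mitochondrial DNA, at 0.37, and 4 fell, such as the coactivator Ppargc1b at -0.67. None of 6 other mitochondrial mRNAs was called in either strain. In DBA/1J the counts were 4 of 4, 4 of 10, 3 of 13 and 8 of 17 higher for complexes II to V, against 25.3% of all genes.

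Cell type markers moved with this comparison. The summed oligodendrocyte markers were at 5979 to 6871 TPM in C57BL/6J brain and at 20853 to 22727 in spinal cord, astrocyte markers at 1418 to 1463 and 2357 to 2478, neuron markers at 3673 to 4507 and 3459 to 3576, oligodendrocyte precursor markers at 117 to 132 and 182 to 215, meningeal markers at 47.6 to 54.6 and 27.5 to 32.2, and choroid plexus markers at 606 to 962 and 3.15 to 5.61. In DBA/1J the same 6 lists also differed without overlap and in the same directions, with oligodendrocyte markers at 4916 to 5485 TPM in brain and 20531 to 23927 in spinal cord and choroid plexus markers at 398 to 846 and 2.51 to 4.5. Their part in the complex I differences was not tested, and in bulk tissue fewer cells of a type and less RNA per cell cannot be told apart.

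**Figure D2:**
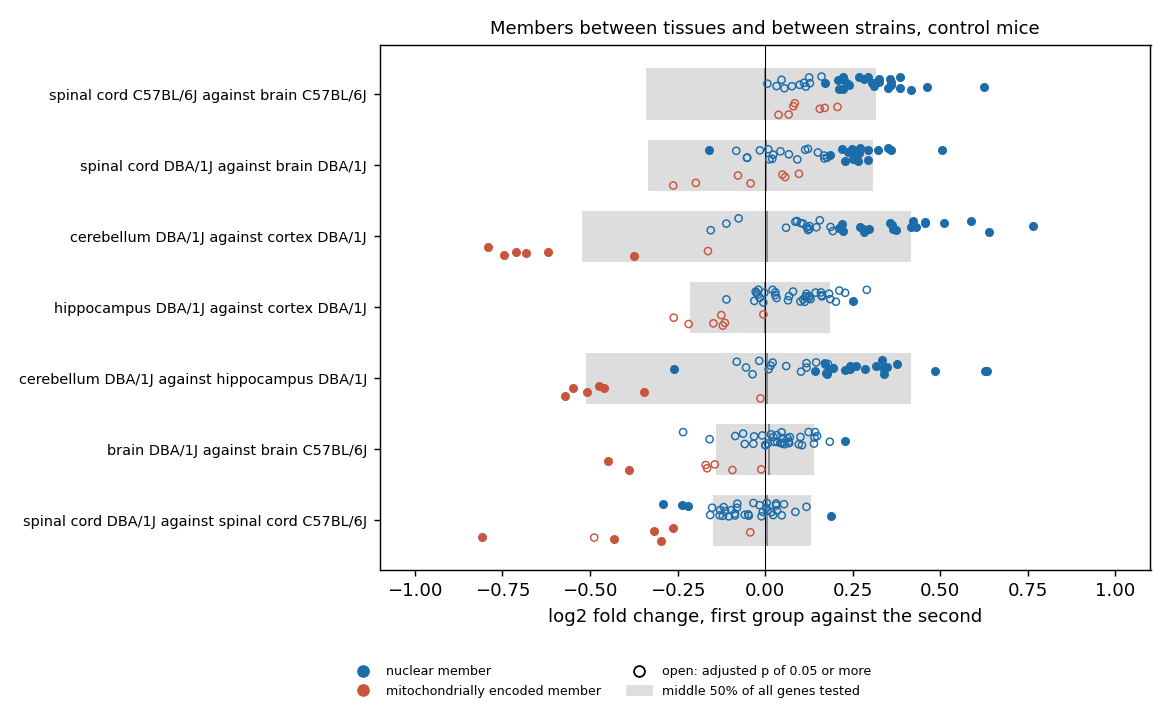
Log2 fold change of each member in the comparisons of tissues, regions and strains of control mice; blue points are nuclear and red points mitochondrial members, filled where the edgeR adjusted p was under 0.05, and the grey box and line are the middle 50% and the median of all genes tested. In spinal cord against brain the filled blue points lie above 0, other than Ndufa7 in DBA/1J, and the mitochondrial points are open, and in cerebellum the red points lie below 0.

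Cerebellum combined higher nuclear with lower mitochondrial complex I transcripts. Against DBA/1J cortex, 20 nuclear members rose and 6 of the 7 mitochondrial members fell, together 26 of 43, against 58.1% of all genes, 28.6% higher and 29.5% lower. The median log2 fold change was 0.22 for nuclear and -0.68 for mitochondrial members, or -0.47 for the latter without cortex DBA/1J replicate 1. TPM was higher without overlap for 33 members, all of the 36 nuclear ones but 3, against 45.7% of all genes, and lower without overlap for 4 mitochondrial members, against 21.9%.

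Ndufb2, a subunit of the distal membrane arm at chr6:39592565-39599843, was at 123, 143 and 144 TPM in cortex and 201, 215 and 195 in cerebellum, so that the groups did not overlap. Its log2 fold change was 0.77 ± 0.07 (edgeR adjusted p = 1.4e-05). Ndufa4, at chr6:11900372-11907450, was at 665, 723 and 674 TPM in cortex and 1188, 1236 and 1192 in cerebellum, a log2 fold change of 0.64 ± 0.07 (edgeR adjusted p = 3.6e-05). Every cerebellum library exceeded every cortex library for both. Ndufb11, an X-linked membrane-arm subunit at chrX:20615326-20617619, went from 89.5, 96.9 and 91.1 TPM to 150, 160 and 150 (log2 fold change 0.51 ± 0.07, edgeR adjusted p = 0.00017). Of the core subunits, Ndufs7 (0.42), Ndufs1 (0.28) and Ndufv2 (0.22) rose, with the call of Ndufv2 lost in 2 alternative fits.

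All mitochondrial members but mt-Nd3 passed the test as lower in cerebellum. For mt-Nd1, which forms the quinone channel with the Q module, TPM was 18592, 12942 and 11843 in cortex and 9962, 8684 and 10726 in cerebellum. The groups did not overlap, and the cortex library at 18592 is the one that stood apart in its mitochondrial share. The log2 fold change was -0.79 ± 0.19 (edgeR adjusted p = 0.0056), and -0.54 without that library (edgeR adjusted p = 0.0041). The other estimates were -0.74 for mt-Nd5, -0.71 for mt-Nd2, -0.68 for mt-Nd6, -0.62 for mt-Nd4 and -0.38 for mt-Nd4l. Without cortex replicate 1 they were -0.49, -0.47, -0.64, -0.41 and -0.26 in the same order, where mt-Nd4l lost its call (edgeR adjusted p = 0.055) and 27 members were called in all. Without cerebellum replicate 1 the calls of mt-Nd2 and mt-Nd4 were lost (edgeR adjusted p = 0.052 and 0.075), without cerebellum replicate 2 those of mt-Nd2, mt-Nd4 and mt-Nd4l (0.061, 0.092 and 0.11), and without cerebellum replicate 3 that of mt-Nd4l (0.055). For mt-Nd3 the cortex libraries were at 1782, 1137 and 947 TPM and the cerebella at 1177, 1272 and 1289, which overlapped (log2 fold change -0.16, edgeR adjusted p = 0.50).

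Against hippocampus, cerebellum gave 20 higher and 7 lower members, where 64% of all genes were called, 32.2% higher and 31.8% lower. TPM was higher without overlap for 33 members, 32 nuclear and 1 mitochondrial, and lower for 4, all mitochondrial, against 43% and 25.1% of all genes. The same cerebellum libraries serve both comparisons. Ndufa4 was at 722, 679 and 700 TPM in hippocampus, all below cerebellum (log2 fold change 0.63 ± 0.05, edgeR adjusted p = 1.2e-06), and Ndufb2 at 155, 136 and 151 (0.63, edgeR adjusted p = 8.7e-06). Ndufb8 was at 332, 333 and 318 TPM in hippocampus and 471, 498 and 465 in cerebellum (0.38, edgeR adjusted p = 6.3e-05). Among nuclear members Ndufa10 alone fell, from 118, 109 and 123 TPM to 105, 132 and 107, with overlapping TPM and a log2 fold change of -0.26 on the TMM scale (edgeR adjusted p = 0.0011). The mitochondrial estimates ran from -0.57 for mt-Nd2 and -0.55 for mt-Nd1 through -0.51 for mt-Nd6, -0.47 for mt-Nd4, -0.46 for mt-Nd5 and -0.35 for mt-Nd4l to -0.01 for mt-Nd3, and all but mt-Nd3 were called. The call of mt-Nd4l was lost by DESeq2 (adjusted p = 0.13) and by edgeR without hippocampus replicate 1 (-0.20, adjusted p = 0.14), cerebellum replicate 2 (-0.24, adjusted p = 0.15) or cerebellum replicate 3 (adjusted p = 0.054). Of the core subunits 5 of 7 rose, Ndufs3 among them with a call that 8 alternative fits lost, the replicate block included (edgeR adjusted p = 0.073).

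Hippocampus and cortex were separated by 1 called member in the fit of these 2 groups, and by 10 in one fit of all groups. The share of all genes called in the latter is not given here, so the 10 have no background beside them. In the fit of 2 groups Ndufb10, a membrane-arm subunit with disulfide bonds, at chr17:24722060-24724423, was called, and it was higher in hippocampus, where 20.6% of all genes were called and 9.78% were higher. TPM was higher without overlap for 12 members and lower for 0, against 21.7% and 13.9% of all genes. It was at 175, 191 and 193 TPM in cortex and 231, 222 and 224 in hippocampus, without overlap (log2 fold change 0.25 ± 0.06, edgeR adjusted p = 0.023). The call was lost in 3 alternative fits, and the number of called members went to 0 without cortex replicate 2, hippocampus replicate 1 or hippocampus replicate 3 and to 3 without cortex replicate 1. With the mouse as a block it was 2.

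The pathway lists moved in part with the members. In cerebellum against cortex, 3 complex II genes, 4 of complex III, 7 of complex IV and 10 of complex V rose, all nuclear, and 5 of 6 other mitochondrial mRNAs and both mitochondrial rRNAs fell (mt-Rnr1 by 1.33 and mt-Rnr2 by 1.09 on the log2 scale). The lists are those read for spinal cord, and 28.6% of all genes were higher and 29.5% lower. Of 14 biogenesis genes 7 rose and 1 fell. Ppargc1b, which coactivates nuclear respiratory factors, had a log2 fold change of 1.42 against cortex (edgeR adjusted p = 2e-06) and 1.53 against hippocampus (edgeR adjusted p = 1.6e-08), and Nrf1 itself 0.69 against cortex. Of the 8 members with the NRF1 letters 4 were called against cortex, beside 16 of the 28 other nuclear members, in spinal cord against brain 6 of 8 beside 19 of 28 in C57BL/6J and 3 of 8 beside 16 of 28 in DBA/1J. Of the 5 with the YY1 letters 4 were called against cortex, beside 16 of the 31 others, and in spinal cord against brain 3 beside 22 in C57BL/6J and 2 beside 17 in DBA/1J. The other members include those with no promoter window. Microglial markers were at 201 to 238 TPM in cortex and 54.9 to 64.1 in cerebellum, choroid plexus markers at 21.8 to 879 and 2561 to 3716, neuron markers at 4559 to 5395 and 4493 to 4695, oligodendrocyte precursor markers at 85 to 107 and 47.2 to 57.7, and meningeal markers at 30.5 to 37.4 and 76.7 to 79.5. In hippocampus the same lists were at 171 to 184 TPM for microglia, 1496 to 6226 for choroid plexus, 4216 to 4380 for neurons, 92.7 to 102 for precursors and 70.1 to 114 for meninges, and oligodendrocyte markers were at 3700 to 4281 beside 4329 to 5431 in cerebellum. Their part in the complex I differences was not tested.

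The strains differed in mitochondrial members. In brain, DBA/1J against C57BL/6J called 3 of 43 members, against 11.2% of all genes (4.04% higher and 7.2% lower), among them mt-Nd5 and mt-Nd3, which were lower in DBA/1J. In spinal cord it called 9 members, 1 higher and 8 lower, against 21.3% of all genes (8.55% and 12.7%). Neither share of called members stands above its background. TPM was lower in DBA/1J without overlap for 8 members in brain and 9 in spinal cord (17.3% and 14.9% of all genes) and higher for 0 and 1 (7.66% and 13.4%). In spinal cord 5 of the 8 lower members were mitochondrial. The median mitochondrial log2 fold change was -0.17 in brain and -0.32 in spinal cord, and the nuclear median 0.05 and -0.05. Cell type markers differed as well: DBA/1J brain was lower without overlap in summed markers of oligodendrocytes (4916 to 5485 against 5979 to 6871 TPM), their precursors (90.7 to 101 against 117 to 132), astrocytes (1265 to 1330 against 1418 to 1463) and endothelium (163 to 176 against 177 to 202). In spinal cord precursor markers were lower without overlap (146 to 158 against 182 to 215). Their part in the strain differences was not tested.

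mt-Nd3, a small core subunit of the membrane arm encoded at bases 9459 to 9806 of the mitochondrial genome, was at 2230, 2018 and 2130 TPM in C57BL/6J brain and 1509, 1444 and 1468 in DBA/1J brain. In spinal cord it was at 2245, 2253 and 2272 TPM in C57BL/6J and 1401, 1375 and 1349 in DBA/1J. In both tissues every DBA/1J library lay below every C57BL/6J library. The log2 fold change was -0.45 ± 0.12 in brain (edgeR adjusted p = 0.045) and -0.81 ± 0.08 in spinal cord (edgeR adjusted p = 1.3e-05). The brain call was lost with sex as a covariate (adjusted p = 0.074) and without C57BL/6J replicate 1 (-0.31, adjusted p = 0.12), C57BL/6J replicate 3 (-0.43), DBA/1J replicate 2 (-0.41) or DBA/1J replicate 3 (-0.43); the spinal cord call held in every fit tried.

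mt-Nd5, the subunit at the far end of the membrane arm, encoded at bases 11742 to 13565, was at 5580, 5722 and 5589 TPM in C57BL/6J brain and 4384, 3806 and 4205 in DBA/1J brain. Spinal cord had 6219, 5890 and 5466 TPM in C57BL/6J and 4202, 4042 and 4926 in DBA/1J. Again no DBA/1J library reached a C57BL/6J library. Log2 fold changes were -0.39 ± 0.07 (edgeR adjusted p = 0.0056) and -0.43 ± 0.06 (edgeR adjusted p = 0.0003). In spinal cord mt-Nd4 (-0.32), mt-Nd4l (-0.30) and mt-Nd2 (-0.26) fell as well, with a call lost in 4 alternative fits for mt-Nd4l (DESeq2 adjusted p = 0.064, and 0.058 and 0.054 by edgeR without replicate 1 of C57BL/6J or of DBA/1J) and in 1 for mt-Nd2 (0.097 in one edgeR fit of all groups), while mt-Nd6 was at -0.49 with an edgeR adjusted p of 0.17 and mt-Nd1 at -0.04. Of the other mitochondrial mRNAs, mt-Cytb of complex III was lower in DBA/1J brain (-0.26, edgeR adjusted p = 0.018) and spinal cord (-0.24, edgeR adjusted p = 0.0062), and mt-Atp8 of complex V in spinal cord (-0.66, edgeR adjusted p = 0.0099).

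The number of members called between the strains in brain went from 3 to 1 without C57BL/6J replicate 1, C57BL/6J replicate 3 or DBA/1J replicate 3. Without DBA/1J replicate 1, the brain that lacked cerebellum, 3 members were called.

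Over controls and mutants together, the 6 DBA/1J and h5 libraries of a tissue were set beside the 18 of C57BL/6J and of h1 to h4, whose lines are C57BL/6J or other B6 lines. These ranges hold the control libraries in which the difference was found and are a description. In brain, mt-Nd3 was at 1165 to 1650 TPM in the 6 libraries and at 1712 to 2429 in the 18, and mt-Nd5 at 3806 to 4909 against 5036 to 6464, both without overlap; 3.83% of all genes were lower without overlap. In spinal cord mt-Nd5 was at 4042 to 4926 against 5043 to 6219 TPM (4.63% of genes were lower without overlap), and 3.52% of all genes were higher without overlap. The spinal cord ranges of mt-Nd3 overlapped, with 1249 to 1547 TPM against 1356 to 2422. No member was higher without overlap in DBA/1J and h5 brain, against 2.21% of all genes.

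**Figure D3:**
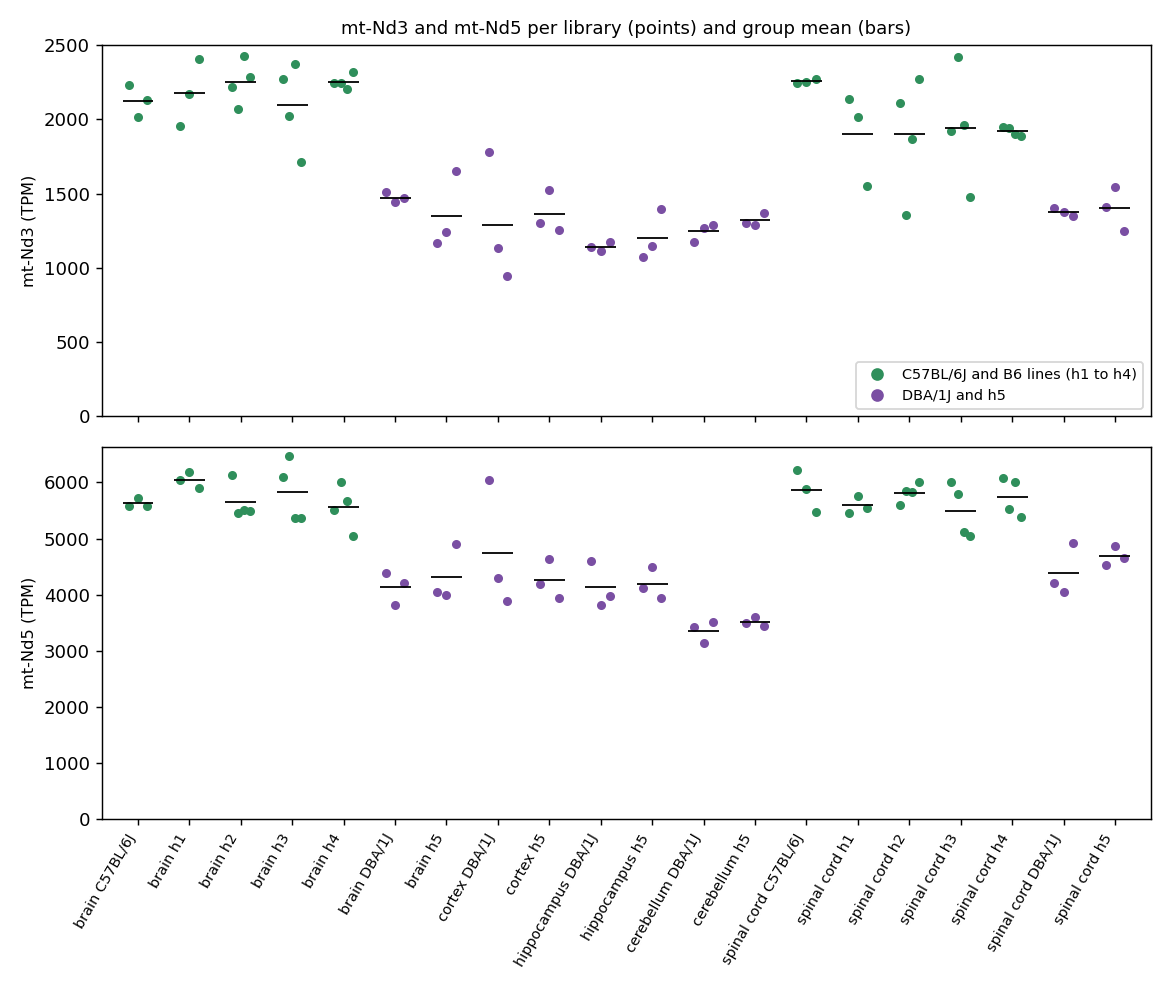
TPM of mt-Nd3 and mt-Nd5 in each library of the 20 groups, green for C57BL/6J and the B6 lines of h1 to h4 and purple for DBA/1J and h5, with bars at group means. Green and purple brain libraries separate for both genes, and in spinal cord mt-Nd5 separates while mt-Nd3 overlaps.

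Ndufa12, at chr10:94199035-94221440, shows how a pseudogene touches a strain difference; it was singled out after its values were seen. In spinal cord it was at 306, 294 and 326 TPM in C57BL/6J and 284, 251 and 291 in DBA/1J, without overlap, and fell by 0.29 ± 0.05 on the log2 scale (edgeR adjusted p = 0.0005). Ndufa12-ps was at 4.61 to 15.3 TPM (median 8.41) in the 36 libraries of C57BL/6J and h1 to h4 and at 42.5 to 87.3 (median 65.1) in the 30 of DBA/1J and h5, with no overlap. The sum of gene and pseudogene was 214 to 338 and 262 to 389 TPM, which overlapped. With both counts summed, the spinal cord difference was -0.15 (edgeR adjusted p = 0.030), and the brain difference went from -0.09 (edgeR adjusted p = 0.42) to 0.06 (edgeR adjusted p = 0.56). Since 2 bases separate gene and pseudogene in the alignment printed earlier, the division of reads between them is uncertain. Ndufa7 (-0.22, edgeR adjusted p = 0.017) and Ndufa3 (-0.24, edgeR adjusted p = 0.018) were the other nuclear members lower in DBA/1J spinal cord, each with a call that 2 alternative fits lost.

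**Figure D4:**
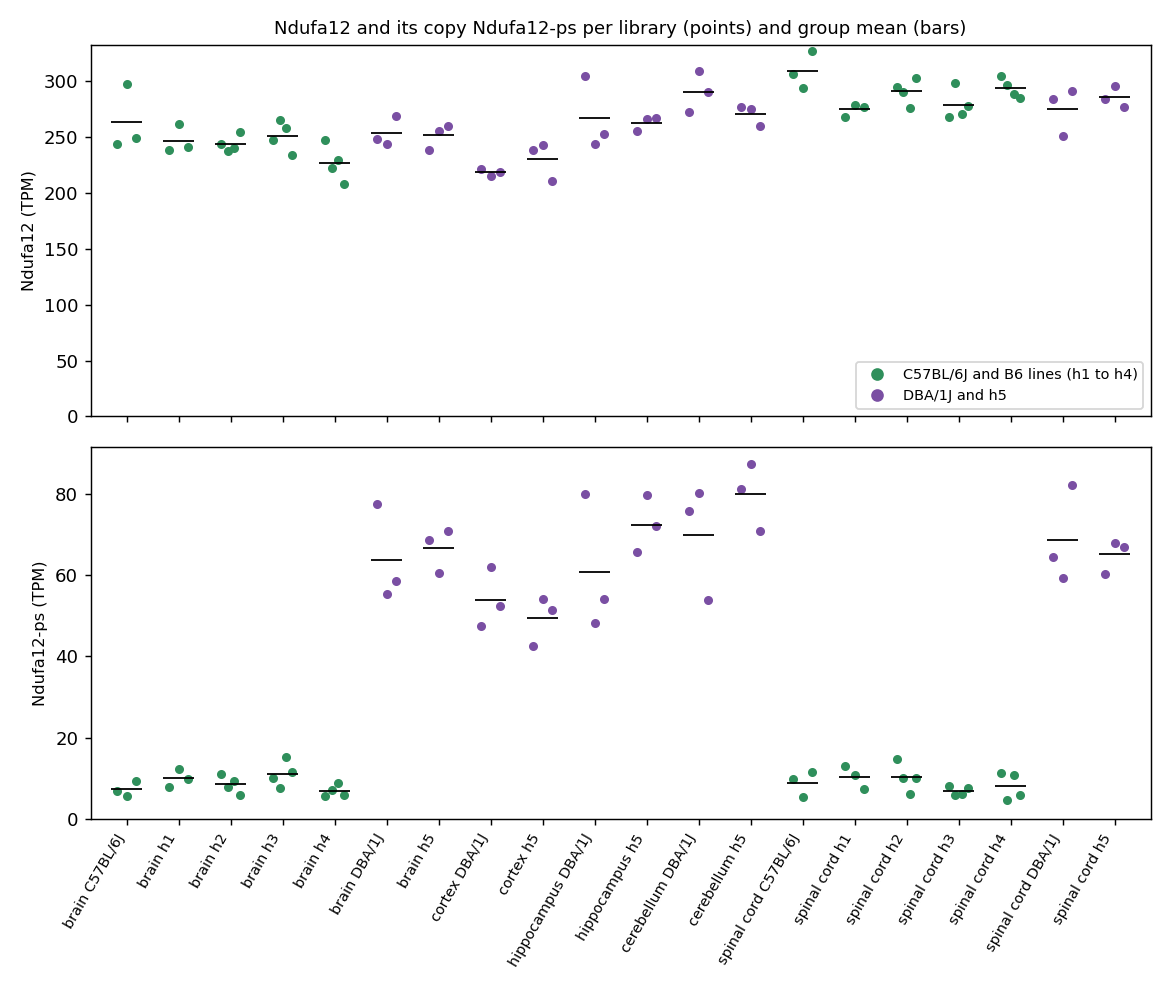
TPM of Ndufa12 and of its processed pseudogene Ndufa12-ps in each library of the 20 groups, green for C57BL/6J and the B6 lines of h1 to h4 and purple for DBA/1J and h5, with bars at group means. The pseudogene lies at 4.61 to 15.3 TPM in green libraries and at 42.5 to 87.3 in purple ones.

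Some assembly factors were lower in DBA/1J as well. In brain 3 of 18 were, against 7.2% of all genes, namely Tmem70, an assembly factor of complexes V and I (-0.47, edgeR adjusted p = 0.0035), Ndufaf2 (-0.52, edgeR adjusted p = 0.0055) and Ndufaf7, a methyltransferase (-0.32, edgeR adjusted p = 0.038). In spinal cord 4 of 18 were lower, against 12.7% of all genes, again with Tmem70 (-0.50) and Ndufaf2 (-0.55). The list was not tested as a group. Whether any strain difference was another in spinal cord than in brain was tested by an interaction term, which called no member by edgeR (0.321% of all genes) and none by DESeq2, while 4 had an unadjusted p under 0.05, beside 1801 of all 18374 genes. The smallest was for Ndufa12, with a difference of -0.21 ± 0.07 (edgeR adjusted p = 0.32), and for mt-Nd3 the difference was -0.36 ± 0.17 (edgeR adjusted p = 0.52). Without brain DBA/1J replicate 1 the interaction also called 0 members.

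No complex I member passed the edgeR test at an adjusted p of 0.05 in any of the 13 comparisons of a mutant with its control, fitted as pairs of groups with the low-count filter. Without that filter edgeR called mt-Nd3 in spinal cord of h1, h2, h3 and h4 and mt-Nd6 in h2, and one fit of all groups called Ndufb2 and Ndufa12 in spinal cord h3. Leaving out h2 replicate 4 called 2 members in spinal cord h2. Across all genes the called share was also small, at 0% in brain h1, 0.136% in brain h2, 0.164% in brain h3, 0.703% in brain h4, 0.289% in spinal cord h1, 2.09% in spinal cord h2, 1.01% in spinal cord h3 and 1.75% in spinal cord h4. For h5 it was 0% in brain and cortex, 0.00581% in spinal cord, 0.0118% in hippocampus and 0.012% in cerebellum. These are edgeR shares, and the study, using DESeq2 at the same threshold, reported more called genes in each of the 13 comparisons. A count of 0 members is therefore near the edgeR background in each. This test can miss small differences. In simulated counts a log2 fold change of 0.25 was recovered for 1.5% of changed genes in brain h1. The share was 12% in brain h4 and 0% in cortex h5. A change of 0.5 was recovered for 95.5%, 93% and 40.5%. Rorb itself was not called in brain h1 (edgeR adjusted p = 0.084) or in any h5 comparison (edgeR adjusted p from 0.081 to 0.39). DESeq2 called 1 member in spinal cord h3 (Ndufa12), 1 in spinal cord h4 (mt-Nd3) and 0 in the other 11. Members with an unadjusted edgeR p under 0.05 numbered 1, 3, 3 and 4 in brain h1 to h4, 4, 4, 13 and 2 in spinal cord h1 to h4, and 2, 4, 3, 2 and 0 in brain, spinal cord, cortex, hippocampus and cerebellum h5. Over all genes the counts were 745, 1311, 1833 and 2349 in brain h1 to h4, of 17594 to 17789 tested. They were 1951, 2723, 2376 and 2433 in spinal cord h1 to h4, of 17309 to 17512. For h5 they were 1003, 1532, 1106, 715 and 937 in the same order of tissues, of 16669 to 17299. Median log2 fold changes of the 43 members lay between -0.08, in spinal cord h3, and 0.04, in spinal cord h5. Those of the 7 mitochondrial members spread more widely, from -0.26 in cortex h5 and -0.18 in spinal cord h3, each with 7 of 7 estimates below 0, to 0.14 in spinal cord h5, with 7 of 7 above 0. Without cortex DBA/1J replicate 1, the library with the high mitochondrial share, the cortex median was -0.03, with 5 of 7 below 0. That fit of cortex h5 also called 0 members. The 7 nuclear core subunits had estimates from -0.14 to 0.16 over the 13 comparisons.

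**Figure D5:**
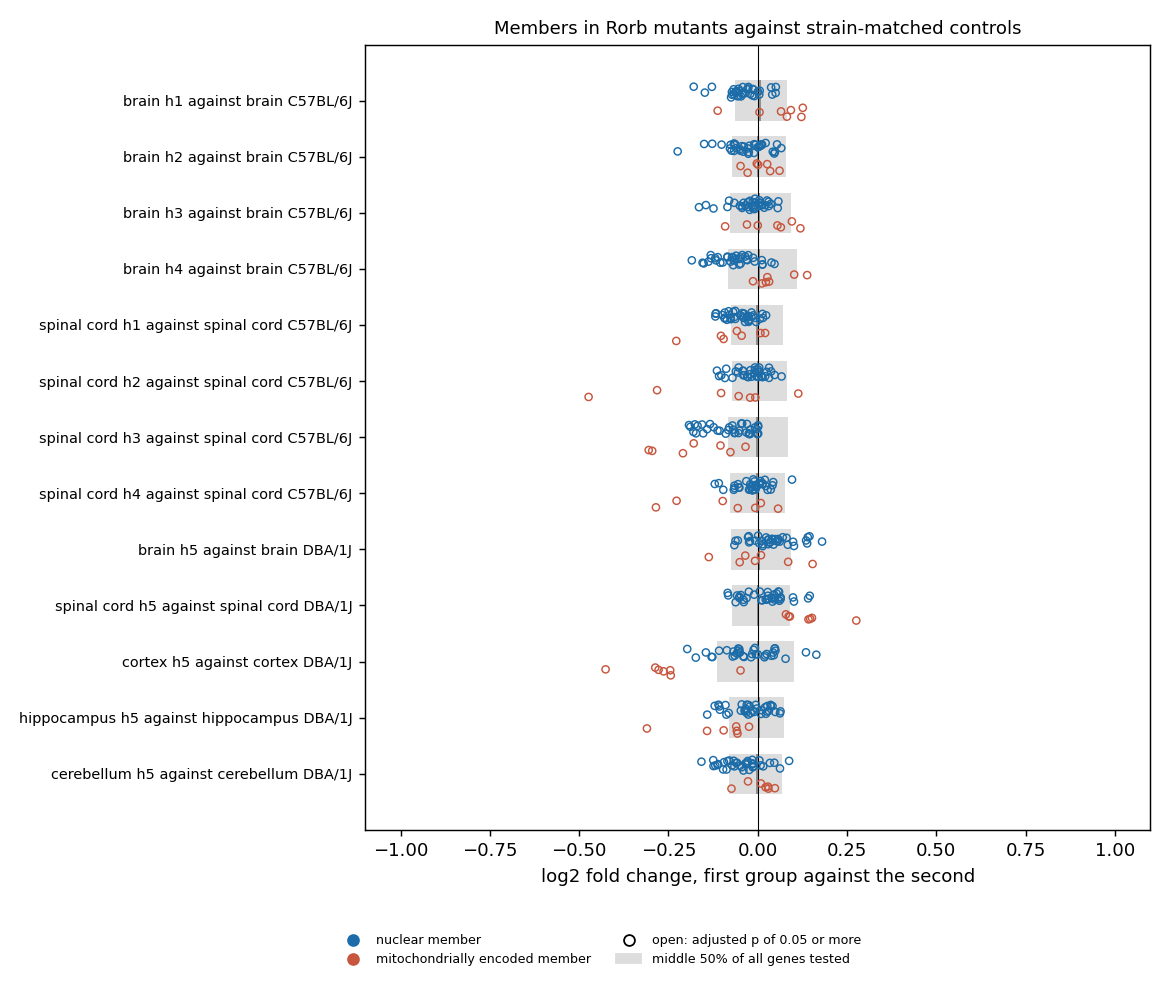
Log2 fold change of each member in the 13 comparisons of a Rorb mutant with its strain-matched control; blue points are nuclear and red points mitochondrial members, and the grey box and line are the middle 50% and the median of all genes tested. All points are open, since no edgeR adjusted p was under 0.05, and the medians of the 43 members lie between -0.08 and 0.04.

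In brain the member with the smallest unadjusted p was Ndufb2 for h1 and h3, Ndufc1 for h2 and Ndufv2 for h4. Ndufb2 was at 134, 129 and 120 TPM in h1, at 143, 130, 148 and 134 in h3 and at 142, 159 and 120 in C57BL/6J, all overlapping, with log2 fold changes of -0.15 for both (edgeR adjusted p = 0.998 and 0.42). Ndufc1, a small membrane-arm subunit, was at 189, 166, 207 and 164 TPM in h2 and 216, 241 and 207 in C57BL/6J. The highest h2 library and the lowest control differed by less than 1 TPM, and the log2 fold change was -0.22 (edgeR adjusted p = 0.56). Ndufv2 was at 163, 175, 149 and 131 TPM in h4, which overlapped the controls at 167, 188 and 173 (-0.13, edgeR adjusted p = 0.29).

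In spinal cord, mt-Nd3 had the smallest p in h4. It was at 1950, 1938, 1900 and 1891 TPM in h4 and 2245, 2253 and 2272 in C57BL/6J, so the groups did not overlap, and the log2 fold change was -0.23 ± 0.06 (edgeR adjusted p = 0.093; DESeq2 adjusted p = 0.017). Without the low-count filter edgeR called mt-Nd3 for all 4 alleles in spinal cord, with an adjusted p of 0.0008 in h4. The other alleles gave -0.23 in h1 (2134, 2017 and 1551 TPM), -0.28 in h2 (2111, 1356, 1865 and 2269) and -0.31 in h3 (1919, 2422, 1963 and 1476). Those 3 groups spread more widely, the h2 and h3 values overlapped the controls, and all 4 estimates rest on the same 3 control libraries, which lay close together. In the interaction with tissue, mt-Nd3 in h4 differed by -0.36 ± 0.14 between spinal cord and brain (edgeR adjusted p = 0.44). Spinal cord h4 was lower without overlap in summed markers of neurons (3215 to 3412 against 3459 to 3576 TPM) and endothelium (142 to 156 against 166 to 184). Meningeal markers were higher without overlap (32.8 to 37.1 against 27.5 to 32.2), and the part of these markers was not tested.

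Ndufa12 had the smallest p in spinal cord of h3 and h1. It was at 268, 298, 270 and 278 TPM in h3 and 306, 294 and 326 in C57BL/6J, with 1 h3 library within the control range, and fell by 0.18 ± 0.05 on the log2 scale (edgeR adjusted p = 0.10; DESeq2 adjusted p = 0.036). In h1 it was at 268, 279 and 277 TPM, below all controls (log2 fold change -0.12, edgeR adjusted p = 0.26). With the counts of Ndufa12-ps added, the h3 difference was -0.18 (edgeR adjusted p = 0.090). Spinal cord h3 had 40 of 43 estimates below 0, spinal cord h1 had 37 and brain h4 had 32, where 8891 of 17512, 8851 of 17309 and 8685 of 17789 genes were. Spinal cord h1 had 24 members at lower TPM without overlap, where 21.4% of all genes were. Summed neuron markers (3124 to 3263 against 3459 to 3576 TPM), endothelial markers (151 to 158 against 166 to 184), microglial markers (123 to 130 against 131 to 141) and spinal cord markers (364 to 380 against 382 to 412) were also lower there without overlap. Brain h4 had 8 members at lower TPM without overlap, where 5.91% of all genes were, with endothelial markers at 140 to 172 against 177 to 202 TPM, and astrocyte markers in spinal cord h3 were at 2026 to 2348 against 2357 to 2478. The part of these markers was not tested. In h2 the smallest p was that of mt-Nd4l, at 6464, 5824, 6063 and 5050 TPM against 5885, 4268 and 5573, which overlapped (0.11, edgeR adjusted p = 0.12).

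With the h5 allele, brain Ndufa4 was at 771, 781 and 840 TPM and at 691, 731 and 685 in DBA/1J, without overlap, and the log2 fold change was 0.14 (edgeR adjusted p = 0.75). Spinal cord mt-Nd4 was at 9864, 10618 and 9487 TPM in h5 and 8784, 8652 and 9584 in DBA/1J (0.14, edgeR adjusted p = 0.50). In cortex mt-Nd4l was at 4482, 4155 and 3938 TPM in h5 and 6120, 4726 and 4596 in DBA/1J, lower without overlap (-0.43, edgeR adjusted p = 0.75). It was -0.30 without cortex DBA/1J replicate 1 (edgeR adjusted p = 0.79). In hippocampus mt-Nd6 was at 917, 805 and 715 TPM in h5 and 827, 1018 and 1011 in DBA/1J, which overlapped (-0.31, edgeR adjusted p = 0.997). In cerebellum Ndufs1, the largest core subunit, was at 160, 171 and 165 TPM in h5 and 156, 155 and 146 in DBA/1J, higher without overlap (0.09, edgeR adjusted p = 0.90).

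Brain h5 had 13 members at higher TPM than DBA/1J without overlap and 0 lower, against 10.8% and 1.92% of all genes. These DBA/1J controls include the library without cerebellum, and without it 0 members were called as well. Summed cerebellar markers were at 612 to 709 TPM in h5 and 77.2 to 564 in DBA/1J, and meningeal markers at 64.6 to 78.6 and 46.5 to 60.2, both higher in h5 without overlap; their part was not tested. Among the pathway lists, mutants differed from controls in 2 genes, mt-Rnr1 in spinal cord h1 (log2 fold change 0.67, edgeR adjusted p = 0.0034) and Cox6b1, a complex IV subunit, in spinal cord h3 (-0.19, edgeR adjusted p = 0.032).

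The interaction of each allele with tissue, which asks whether a mutant's difference in spinal cord was another than in brain, called 0 members for every allele by edgeR and by DESeq2, where edgeR called 0% of all genes for h1, h2, h3 and h5 and 0.0054% for h4. Leaving out brain DBA/1J replicate 1 also gave 0 members for h5. An unadjusted edgeR p under 0.05 was reached by 0 members for h1 and h2 and by 1 each for h3 (mt-Nd4l, -0.32 ± 0.14), h4 (mt-Nd3) and h5 (Ndufs7, -0.18 ± 0.07). Over all genes it was reached by 689, 1014, 918, 1690 and 739 for h1 to h5, of 18190 to 18513 tested.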

How the data were processed

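Per the labels and the study's methods, the authors trimmed reads with Trim Galore after FastQC, aligned them to GRCm38 (mm10, the C57BL/6J genome) and deposited RSEM expected counts and TPM per gene and library; the annotation release is not given in the sources used here. Expected counts, of which 4.91% were not whole (tolerance 0.01), were rounded and tested in edgeR 4.0.16 (R 4.3.3) by the quasi-likelihood test with TMM scaling, filterByExpr and Benjamini-Hochberg adjustment over all genes. TPM served for levels. Each fit held the 2 groups compared, or 4 for an interaction. DESeq2 1.42.0, its size factors, no filter, sex, identifier series, the replicate number as a block, fits of all groups and leaving out each library were alternatives. Tissues of 1 mouse share its number; no other numbers pair samples by label. For brain h1 all 3 correlations of same-numbered samples exceeded 0.1 (0.115, 0.116 and 0.234). Scripts were tested on simulated data. Members and lists were chosen with earlier results of these data known. Text names the mitochondrial and core members, the 3 smallest adjusted p per comparison (or the smallest p where none passed), the extreme levels and members with copies. Alignment of DBA/1J reads to the C57BL/6J genome was not tested as a source of strain differences. Values of 1 member are not reported here.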

Additional observations from a re-analysis of the deposited data

Results flagged for a closer look

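In the h2, h3 and h4 groups, each of 4 libraries, the gap between the highest or lowest library and its neighbour was tested as a share of the group's range in 96 tests, over both sums, the 7 mitochondrial members and the 7 nuclear core members. Chance marks about 1 in 20 such tests. Brain h2 replicate 1 was far above the other 3 libraries of its group in the sum of the mitochondrially encoded members (50393 TPM), in mt-Nd4 (11843 TPM) and in mt-Nd5 (6132.5 TPM). These 3 values are of 1 library and are not independent of each other. Spinal cord h2 replicate 4 stood apart in mt-Nd2, at 9246 TPM.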

How the results depend on the processing

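With no low-count filter, spinal cord h1 called 1 member (mt-Nd3), h2 called 2 (mt-Nd3 and mt-Nd6), and h3 and h4 called 1 each (mt-Nd3). DESeq2 called 1 member in spinal cord h3 and 1 in spinal cord h4. One fit of all groups called 2 in spinal cord h3 (Ndufb2 and Ndufa12), 5 between the strains in brain and 10 between hippocampus and cortex. Shares of all genes under the alternative fits are not given here, so these counts have no background beside them. Without mitochondrially encoded genes the strain counts were 1 in brain and 4 in spinal cord. Leaving out 1 library gave 0 to 2 in spinal cord h2 (2 without h2 replicate 4), 1 to 3 between the strains in brain, 7 to 10 in spinal cord, 0 to 3 between hippocampus and cortex, 21 to 27 and 17 to 21 between spinal cord and brain of C57BL/6J and DBA/1J, and 20 to 27 and 21 to 29 between cerebellum and cortex or hippocampus. With the replicate block, counts were 0 in all 13 mutant and 6 interaction comparisons, 2 for hippocampus against cortex, 24 and 18 for spinal cord against brain of C57BL/6J and DBA/1J, and 24 and 25 for cerebellum against cortex and hippocampus, and 6 tissue calls were lost (Ndufa5 in C57BL/6J and Ndufa7 in DBA/1J spinal cord, Ndufa12 and Ndufc1 against cortex, Ndufb4 and Ndufs3 against hippocampus). Between the strains, whose numbers do not pair mice, it gave 2 in brain and 11 in spinal cord. Summing copies, chosen after seeing the data, gave 26 in C57BL/6J spinal cord against brain (from 25) and 26 in cerebellum against hippocampus (from 27). It turned the brain strain difference of Ndufa12, which was not called, from -0.09 to 0.06. No called difference among the values recomputed reversed, and the causes of these changes were not tested. One fit of all groups could not be fitted for h5 regions.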
